A study of Homo sapiens with 19 samples.

Results

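TGF-beta signalling restrains itself by switching on its own inhibitors, and the 8 genes described here belong to that feedback layer or sit next to it: SMAD7, SMAD6, SKI, SKIL, TGIF1, PMEPA1, BAMBI and LTBP2. They were chosen by name, with earlier results of these data known, and matched by Ensembl identifier. They are 8 of the 32703 gene identifiers shared by all 19 libraries. Human liver organoids grown from W01, a single established human pluripotent stem cell line with a wild-type genotype, were profiled by droplet single-cell RNA sequencing. The 19 libraries form 9 groups. Organoids in ultra-low attachment plates (ULA) were untreated and collected on day 21 (n = 3) or day 34 (n = 2). Organoids on an orbital shaker (OS) were collected on day 25, in 7 groups of 2 libraries: untreated, TGFB1 at 10 ng/ml, PA at 500 µM, OA at 500 µM, and a separate control for each of the 3 treatments. Exposure to TGFB1 or PA lasted 5 days after 20 days of culture, per the labels. PA and OA are abbreviations that the labels leave unexplained, and the length of the OA treatment is not given in the sources used here. What the control organoids received is not given there either. Only 1 line was used, and the labels call the libraries replicates without saying that they came from separate cultures, so the p-values measure the spread between these libraries, which may be technical.

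TGF-beta ligands bind a pair of receptor kinases at the cell surface, and the activated type I receptor phosphorylates SMAD2 and SMAD3, which join SMAD4 and enter the nucleus to change transcription. Inhibitory SMADs block the receptors, co-repressors silence the SMAD complex on DNA, and membrane proteins such as PMEPA1 and BAMBI interfere with receptor signalling further upstream. In liver, TGF-beta drives fibrosis by activating matrix-producing mesenchymal cells and restrains the growth of epithelial cells.

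The start-site sequences of the 2 inhibitory SMAD genes are shown because both are known feedback genes and 1 of them carries the palindromic SMAD-binding motif GTCTAGAC in this window. Each is the 250 bases before a RefSeq start site on GRCh38.p14, written 5′ to 3′ along the gene, with GTCTAGAC and CAGACA (or its reverse complement) in capitals. The SMAD6 window lies at chr15:66701986-66702235 on the plus strand and the SMAD7 window, for the first of 3 listed starts, at chr18:48950966-48951215 on the minus strand.
SMAD6: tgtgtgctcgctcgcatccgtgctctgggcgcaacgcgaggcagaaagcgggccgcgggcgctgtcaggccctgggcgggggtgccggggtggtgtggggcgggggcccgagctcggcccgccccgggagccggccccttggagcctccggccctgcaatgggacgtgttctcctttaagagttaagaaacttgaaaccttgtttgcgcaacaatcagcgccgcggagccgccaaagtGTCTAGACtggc
SMAD7: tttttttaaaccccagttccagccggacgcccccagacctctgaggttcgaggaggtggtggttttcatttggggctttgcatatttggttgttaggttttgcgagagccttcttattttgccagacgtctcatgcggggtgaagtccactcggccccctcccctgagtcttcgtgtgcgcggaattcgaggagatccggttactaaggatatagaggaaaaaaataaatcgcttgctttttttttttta
Both strands were searched. The palindrome begins 12 bases before the SMAD6 start, and it occurs in 64 of 35116 windows of this length in the RefSeq table (0.182%). It was in none of the windows listed for the other members, which says only that these letters are not there. SKI had no start site in the RefSeq table, so it was not searched for any motif.

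A further pair of stretches of 30 bases show the shorter SMAD motif CAGACA, which 13.6% of all windows hold, in members whose RNA rose with TGFB1. That share is per window, and PMEPA1 and TGIF1 have more listed starts, and so more windows, than any other member. The PMEPA1 stretch is at chr20:57710675-57710704 on the minus strand, with the motif 115 bases before the second of 4 listed starts. The TGIF1 stretch is at chr18:3448314-3448343 on the plus strand, with the motif 105 bases before the third of 7 listed starts. CAGACA was also in the windows of the first and, on the opposite strand, the fourth TGIF1 start, 224 and 136 bases before them; these are not shown.
PMEPA1: ccccttgggcagCAGACAatgggtgtggat
TGIF1: caatcccagccaCAGACAacccttcaaacg
Neither GTCTAGAC nor CAGACA was in the windows of SKIL, BAMBI or LTBP2, each with 1 listed start. GGCGCC, found in 16.4% of all windows, was in all 3 of those windows, 3 times in that of BAMBI, and in that of the first PMEPA1 start. The AP-1 motif TGANTCA, found in 6.57% of windows, was in 1 member window, that of the second TGIF1 start. TGTCA, found in 34.0% of windows, was in the windows of SMAD6, BAMBI, SMAD7 (start 3), TGIF1 (starts 2, 4, 5 and 6) and PMEPA1 (starts 2 and 4). A match is a description of letters, not of binding.

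The libraries held 7476533 to 92522222 UMIs (unique molecules counted per gene and cell), and 120240 of 138053 deposited barcodes were kept because they held 500 or more detected genes and no more than 20% mitochondrial UMIs. Levels are given as CPM, the UMIs of a gene per 1000000 UMIs summed over the kept cells of a library, and values for a pair of libraries are listed as replicate 1 and then replicate 2. TGFB1 control replicate 1 had the lowest median, 1310 UMIs per kept cell against 5635 in control replicate 2. Of its 9615 cells, 4300 had no UMI of a gate gene. PA control replicate 1 was shallow too, at a median of 1747 UMIs against 7058, and 1087 of its 3205 cells had no such UMI. Its total of 7476533 UMIs was the lowest of all libraries. PA replicate 1 and untreated replicate 2 had medians of 2549 and 2288 UMIs. Cells were gated as EPCAM-positive (at least 1 UMI of EPCAM, an epithelial adhesion molecule, and 0 of COL1A2 and COL3A1) or COL-positive (at least 1 UMI of those 2 mesenchymal collagen genes and 0 of EPCAM). Cells with both, 1.93% to 59.7% of a library, went into neither class. Libraries shared 1 to 32 cell barcodes with each other over 171 pairs, at most 0.581% of the smaller library.

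The gates were checked against marker lists in the TGFB1 experiment. Of the 7 mesenchymal markers, DCN, LUM, PDGFRA, PDGFRB and COL6A3 were at most 3.998 CPM in EPCAM-positive cells and at least 43.5 CPM in COL-positive cells of all 4 libraries. COL1A1 was at 33.5 and 17.2 CPM in EPCAM-positive control cells and 347.5 and 405 CPM with TGFB1, against 3679 to 4329 CPM in COL-positive cells. VIM, a mesenchymal intermediate filament gene, did not separate the classes: with TGFB1 it was at 5601 and 4752 CPM in EPCAM-positive cells and 4552 and 3364 CPM in COL-positive cells. Of the 4 immune markers, C1QA was at 0 and PTPRC at most 0.034 CPM in both classes. CD68 was at 6.05 to 10.5 CPM in EPCAM-positive cells and at most 1.51 CPM in COL-positive cells. LYZ, a lysozyme gene, was at 240 and 202 CPM in EPCAM-positive control cells and 40.5 and 32.6 CPM with TGFB1, and at 60.5 CPM in the COL-positive cells of control replicate 1 against at most 1.88 CPM in those of the other 3 libraries. CDH1, an epithelial cadherin, was at 203 to 393 CPM in EPCAM-positive cells and at 5.78 to 6.59 CPM in the COL-positive cells of 3 libraries, but at 76.6 CPM in those of control replicate 1. KRT8 and KRT18, epithelial keratin genes, were also present in COL-positive cells, at 435.5 to 736 CPM, beside 735 to 3006 CPM in EPCAM-positive cells. The summed hepatocyte markers were likewise at 880.4 CPM in the COL-positive cells of that library against 125 to 147 CPM in the other 3.

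Treatment with TGFB1 raised 5 of the 8 genes in whole libraries and lowered 0 of them: LTBP2, PMEPA1, SKIL, BAMBI and TGIF1. Over all 19366 genes tested, 10.9% were higher and 11.3% were lower at an adjusted p under 0.05 in edgeR's quasi-likelihood test. The median log2 fold change was 1.09 over the 8 genes and -0.05 over all genes tested. All 8 genes passed the low-count filter. A sum over a library cannot separate more RNA per cell from more cells of a type. The summed mesenchymal markers of whole libraries went from 903.5 and 1629 CPM to 6344 and 5707 CPM (in EPCAM-positive TGFB1 cells VIM, which did not separate the classes, made up 5601 and 4752 CPM of a sum of 5957 and 5166 CPM), COL-positive cells from 439 and 333 (of 9615 and 8505) to 513 and 660 (of 6002 and 6904), and double-positive cells from 186 and 446 to 947 and 597; their part in these results was not tested. Without TMM scaling factors, on library totals alone, the median over all genes moved to -0.24 and the called genes split into 1415 higher and 3065 lower instead of 2104 and 2191. Counting both directions, the genes called were 1704 without TGFB1 replicate 1, 2232 without TGFB1 replicate 2, 2319 without control replicate 1 and 5554 without control replicate 2.

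The inhibitory SMADs did not pass the test. SMAD7, which recruits ubiquitin ligases to the receptor and competes with SMAD2 and SMAD3 for it, was at 42.8 and 15.4 CPM in control and 30.1 and 35.2 CPM with TGFB1. The treated libraries lay between the 2 control libraries, which differed from each other more than they did from the treated ones. The SMAD7 log2 fold change was 0.42 ± 0.33 (SE, adjusted p = 0.386). Without TGFB1 control replicate 1 it was 1.17, with an adjusted p of 0.0186, and without control replicate 2 it was -0.08.

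SMAD6, the inhibitory SMAD best known for blocking BMP receptors, was at 24.8 and 11.9 CPM in control and 11.99 and 13.7 CPM with TGFB1. Its log2 fold change of -0.27 ± 0.28 (SE, adjusted p = 0.514) turned to 0.21 without control replicate 1. SMAD6 is the member whose window holds the palindrome shown above. As for SMAD7, the treated libraries lay between the 2 controls.

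SKI, a nuclear co-repressor that binds SMAD3 and SMAD4, followed the same pattern over the libraries, at 50.5 and 15.9 CPM in control and 17.5 and 18.1 CPM with TGFB1. One control library stood well above the other 3. The log2 fold change was -0.64 ± 0.38 (SE, adjusted p = 0.245), 0.25 without control replicate 1, and -1.20 with an adjusted p of 0.0132 without control replicate 2. So for SMAD7, SMAD6 and SKI the sign of the change rested on which control library was used. Control replicate 1 was among the shallow libraries described above, and the part of depth in these 3 values was not tested.

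Its paralogue SKIL (SnoN), a co-repressor that TGF-beta first degrades as protein and then induces as RNA, was at 130.5 and 149 CPM in control and 505 and 425 CPM with TGFB1. Both treated libraries were far above both controls. SKIL rose 3.79-fold, or by 1.92 ± 0.24 on the log2 scale (SE, adjusted p = 0.000116). TGIF1, a homeodomain co-repressor that brings histone deacetylases to SMAD2, went from 76.0 and 102 CPM to 141 and 133 CPM without overlap. Its log2 fold change of 0.80 ± 0.27 (SE, adjusted p = 0.0493) was the smallest of the called ones and lay at the threshold: on library totals without scaling factors it was 0.62 with an adjusted p of 0.102. The TGIF1 call was also lost with only the compared libraries (0.0803), with stricter cells (0.0527) and with predicted doublets removed (0.0512). Leaving out control replicate 1, TGFB1 replicate 1 or TGFB1 replicate 2 gave adjusted p values of 0.321, 0.214 and 0.129.

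Among the membrane inhibitors, PMEPA1, which sequesters receptor-activated SMADs and promotes receptor turnover, was at 135 and 163 CPM in control and 645 and 580 CPM with TGFB1. The groups were far apart, and the log2 fold change was 2.23 ± 0.20 (SE, adjusted p = 1.2e-05), or 4.68-fold. BAMBI, a pseudoreceptor that lacks the kinase domain, was at 122 and 145 CPM in control and 311 and 299 CPM with TGFB1. BAMBI also rose without overlap, by 1.38 ± 0.36 on the log2 scale (SE, adjusted p = 0.0155). Leaving out control replicate 1, TGFB1 replicate 1 or TGFB1 replicate 2 left BAMBI at 1.17 to 1.42 with adjusted p values of 0.122, 0.082 and 0.0563.

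LTBP2 is a matrix protein of the latent TGF-beta binding protein family that associates with fibrillin microfibrils and, unlike its relatives, does not bind latent TGF-beta. It had the largest change of the 8, from 1.20 and 1.13 CPM in control to 14.4 and 15.4 CPM with TGFB1. That is a log2 fold change of 3.86 ± 0.43 (SE, adjusted p = 4.77e-05), or 14.5-fold, from a low starting level. LTBP2, PMEPA1 and SKIL kept their direction and an adjusted p under 0.05 when any 1 of the 4 libraries was left out.

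**Figure D1:**
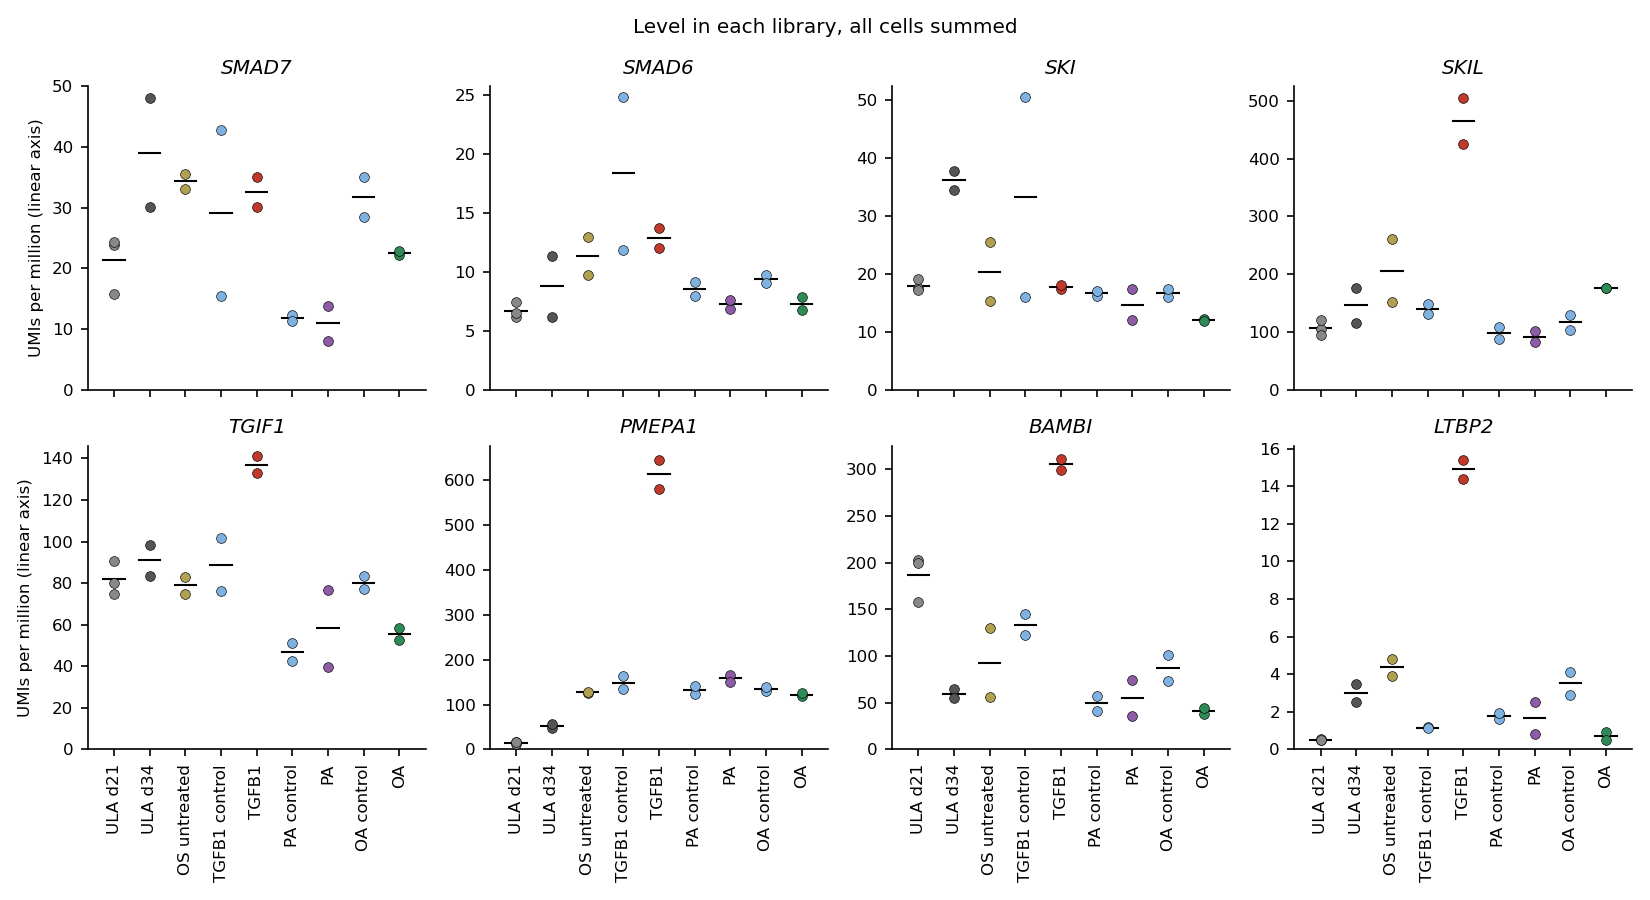
Level of each gene in CPM (vertical axis, linear, from 0) in every library (points) of the 9 groups (horizontal axis), with the group mean as a bar. PMEPA1, SKIL, TGIF1, BAMBI and LTBP2 were highest in the 2 TGFB1 libraries, while SMAD7, SMAD6 and SKI show 1 TGFB1 control library far above the other.

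**Figure D2:**
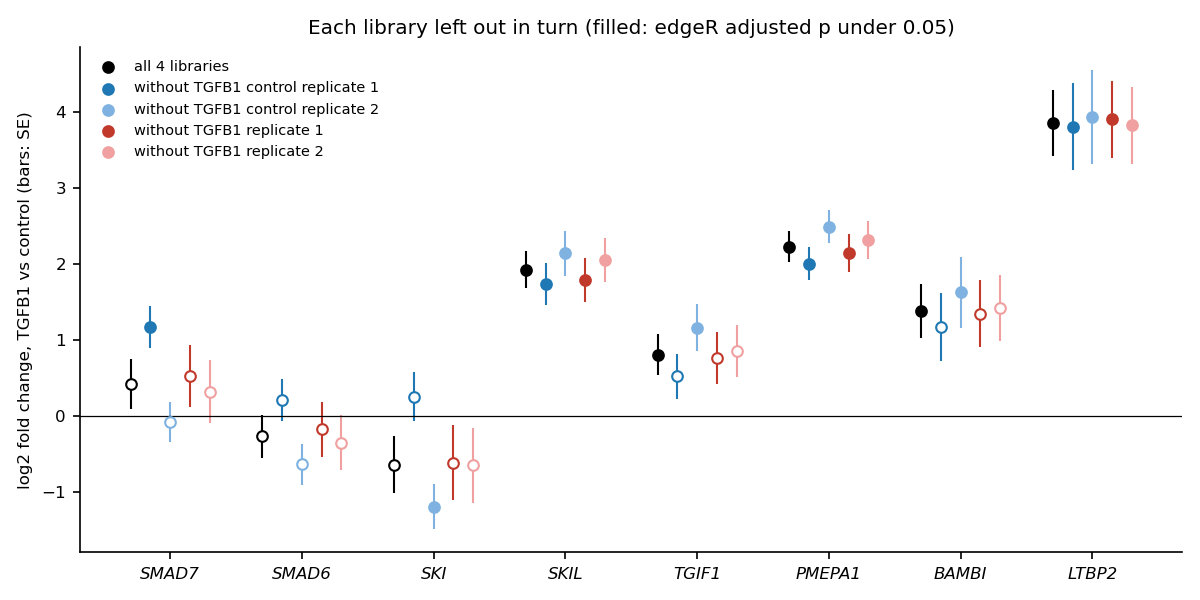
Log2 fold change of TGFB1 against control in whole libraries (vertical axis, bars show the SE) for each gene with all 4 libraries and with each left out in turn; filled points have an edgeR adjusted p under 0.05. LTBP2, PMEPA1 and SKIL stay filled throughout, whereas SMAD7, SMAD6 and SKI cross 0 with the choice of control library.

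PA did not change any of the 8 genes past the threshold. At an adjusted p under 0.05 in edgeR, 0 of 8 were called, 0 had an unadjusted p under 0.05, and DESeq2 called 0. The median log2 fold change was 0.0046 over the 8 genes and 0.019 over all genes tested. Few genes were called at all with PA: 9 of 19366 were higher (0.0465%) and none were lower (0.0%). DESeq2 called 46 higher and 8 lower, and the alternatives other than leaving out a library called 0 to 162. PMEPA1 was at 124 and 142 CPM in the PA control and 166 and 151 CPM with PA, a log2 fold change of 0.31 ± 0.20 (SE, adjusted p = 1.0) without overlap between the groups. SKIL was at 87.4 and 108 CPM and then 82.7 and 101 CPM, with overlapping groups and a log2 fold change of -0.03 ± 0.24 (SE). LTBP2, at 1.60 and 1.94 CPM in the control, was at 0.84 and 2.54 CPM with PA, so the treated pair spread around both controls. PA control replicate 1 and PA replicate 1 were shallow, as given above, and the part of depth in the PA results was not tested.

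The responses to TGFB1 and PA, which have separate controls, were compared directly. The difference of log2 fold changes, TGFB1 minus PA, was 3.82 ± 0.60 for LTBP2, 1.95 ± 0.34 for SKIL and 1.91 ± 0.28 for PMEPA1 (SE, edgeR adjusted p of 0.00146, 0.00255 and 0.000916). The LTBP2 difference was 3.30 without PA replicate 1 and 4.91 without PA replicate 2, and its adjusted p was at most 0.0314, without PA control replicate 2. These 3 of 8 were higher and 0 lower, beside 4.09% of all genes higher and 4.71% lower, with a median of 0.82 over the 8 genes and -0.06 over all genes. BAMBI differed by 1.17 ± 0.50 with an adjusted p of 0.186, and TGIF1 by 0.43 ± 0.38 with an adjusted p of 0.547.

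OA moved 2 of the 8 genes, in opposite directions: SKIL rose and LTBP2 fell. In that comparison 21.7% of the genes tested were higher and 21.6% lower, and the median log2 fold change was -0.14 over the 8 genes and -0.08 over all genes, so 1 of 8 in each direction is no more than the share of all genes. SKIL was at 104 and 129 CPM in the OA control and 177 and 175 CPM with OA, without overlap. Its log2 fold change was 0.94 ± 0.24 (SE, edgeR adjusted p = 0.00623), but 0.60 with an adjusted p of 0.0699 on library totals without scaling factors, where the median over all genes was -0.43 instead of -0.08 and the calls split into 2628 higher and 5952 lower instead of 4197 and 4181. Without OA control replicate 1 the SKIL adjusted p was 0.0545.

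LTBP2 was at 2.91 and 4.14 CPM in the OA control and 0.93 and 0.50 CPM with OA, and both treated libraries were below both controls. The log2 fold change was -1.95 ± 0.41 (SE, edgeR adjusted p = 0.00214). COL-positive cells numbered 1927 and 1160 in the control and 60 and 38 with OA, and the summed mesenchymal markers went from 2723 and 4164 CPM to 281 and 240.2 CPM; the part of this shift in the fall of LTBP2 was not tested in whole libraries. BAMBI, at 73.7 and 101.5 CPM and then 37.4 and 44.1 CPM, had a log2 fold change of -0.75 ± 0.36 (SE, adjusted p = 0.104) and -1.10 with an adjusted p of 0.0262 on library totals. CPM was lower with OA in both libraries for SMAD7, SMAD6, SKI, TGIF1 and PMEPA1 as well, and none of these 5 passed the test. CPM carries no scaling factors, and on library totals the median log2 fold change over all genes was -0.43. A negative change on that scale was thus common among all genes. The share of all genes with a lower CPM in both OA libraries was not computed, so these 5 have no background beside them. For PMEPA1 the sign depended on the scaling, with a log2 fold change of 0.20 under TMM and -0.14 on library totals.

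Set against OA, the TGFB1 response was higher for 4 of the 8 genes and lower for 0, beside 15.4% and 16.4% of all genes, with a median of 0.99 over the 8 genes and -0.03 over all genes. On library totals the median over all genes was 0.115, with 3329 genes higher and 2542 lower instead of 2989 and 3175. The difference of log2 fold changes was 5.81 ± 0.60 for LTBP2, 2.13 ± 0.51 for BAMBI, 2.02 ± 0.28 for PMEPA1 and 0.98 ± 0.33 for SKIL (SE, edgeR adjusted p of 1.52e-05, 0.00591, 0.00014 and 0.0386). For TGIF1 the difference was 0.99 ± 0.38 with an adjusted p of 0.0635. SKIL was thus higher after both TGFB1 and OA, and more so after TGFB1, although the SKIL difference lost its call when 7 of the 8 libraries involved were left out 1 at a time, TGFB1 control replicate 2 being the exception.

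**Figure D3:**
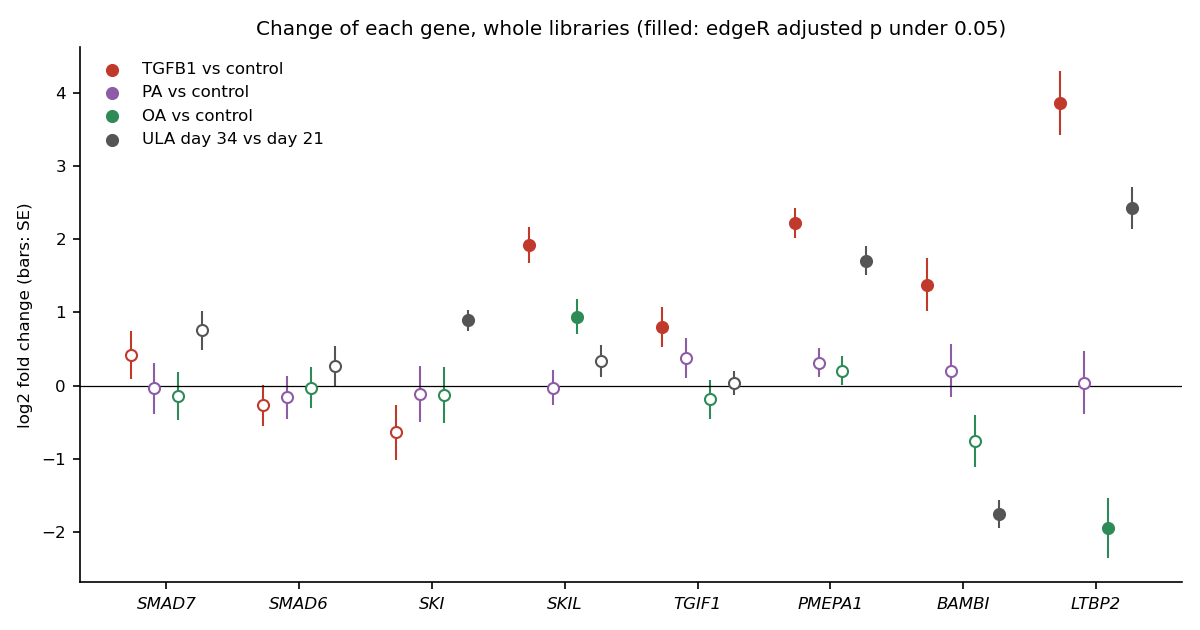
Log2 fold change in whole libraries (vertical axis, bars show the SE) of each gene for TGFB1, PA and OA against their controls and for ULA day 34 against day 21; filled points have an edgeR adjusted p under 0.05. TGFB1 has 5 filled points, PA none, OA 2 (SKIL up, LTBP2 down) and ULA 4.

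Without any added treatment, 4 of the 8 genes differed between ULA organoids of day 34 and day 21: PMEPA1, LTBP2 and SKI were higher on day 34 and BAMBI was lower. Of the 22261 genes tested in this pair, 8.43% were higher and 7.19% lower. Counting both directions, 773, 1430 and 697 genes were called without day 21 replicates 1, 2 and 3, and 7166 without day 34 replicate 2, beside 1876 higher and 1600 lower with all 5 libraries. The median log2 fold change was 0.54 over the 8 genes and 0.01 over all genes, or 0.14 over all genes on library totals, where 2596 were higher and 1304 lower instead of 1876 and 1600. PMEPA1 was at 15.9, 11.5 and 15.9 CPM on day 21 and at 46.7 and 55.7 CPM on day 34, a log2 fold change of 1.71 ± 0.20 (SE) with an edgeR adjusted p of 0.00312. LTBP2 was at 0.50, 0.54 and 0.50 CPM and then 2.55 and 3.47 CPM (log2 fold change 2.43 ± 0.29, SE, adjusted p = 0.00341). Neither gene's day 34 libraries overlapped those of day 21.

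SKI was at 17.5, 19.1 and 17.2 CPM on day 21 and 37.8 and 34.4 CPM on day 34, with a log2 fold change of 0.89 ± 0.15 (SE) with an edgeR adjusted p of 0.0104. Without day 21 replicate 1 or day 21 replicate 3 the SKI adjusted p was 0.0738 or 0.0624, while PMEPA1, LTBP2 and BAMBI were called whichever library was left out. The day 34 pair had the highest mean SKI level of the 9 groups. BAMBI went the other way, from 202, 199 and 158 CPM to 65.0 and 54.8 CPM, a log2 fold change of -1.75 ± 0.19 (SE, adjusted p = 0.00267). PMEPA1 and BAMBI, which rose together with TGFB1, therefore moved in opposite directions over culture time. SMAD7 was at 23.9, 15.7 and 24.4 CPM and then 48.1 and 30.1 CPM, without overlap, and did not pass the test (log2 fold change 0.76 ± 0.27, SE, adjusted p = 0.0973). SKIL, TGIF1 and SMAD6 overlapped between the days.

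The ULA libraries changed in makeup between the days, with the summed hepatocyte markers at 2143, 1948 and 2069 CPM on day 21 and 81.6 and 752 CPM on day 34, and summed squamous markers at 11.9, 7.59 and 10.5 CPM and then 297 and 1448 CPM; their part in these results was not tested. Day 34 organoids were also dissociated for longer, per the labels. Tests within gated classes were made for the OS libraries only, and day 34 replicate 1 held 23 EPCAM-positive cells, so the ULA class values are given without a test. In COL-positive cells BAMBI was at 297 to 378 CPM on day 21 and 80.0 and 69.0 CPM on day 34, and PMEPA1 at 21.95, 13.8 and 22.4 CPM and then 46.8 and 63.6 CPM. The COL-positive cells thus had the same direction as the whole libraries for both genes. The summed epithelial markers of this class were 934, 968 and 732 CPM on day 21 and 763 and 2762 CPM on day 34. Double-positive cells made up 49.6% and 59.7% of the day 34 libraries. The part of the makeup of the class in these values was not tested. EPCAM-positive cells of day 34 replicate 2 had BAMBI at 65.2 CPM, beside 57.5, 46.8 and 41.9 CPM on day 21.

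In EPCAM-positive cells TGFB1 raised the same 5 genes as in whole libraries, LTBP2, PMEPA1, SKIL, BAMBI and TGIF1, and lowered 0, beside 12.3% of 17526 genes higher and 12.7% lower. The median log2 fold change was 1.18 over the 8 genes and -0.06 over all genes tested. On library totals the latter was -0.25, with 1429 genes higher and 2994 lower instead of 2150 and 2223. LTBP2 was almost undetected in control cells of this class, with 2 UMIs in 4690 cells and 13 UMIs in 7308 cells, and had 405 UMIs in 4099 cells and 460 UMIs in 5358 cells with TGFB1. In CPM these are 0.22 and 0.28 against 12.8 and 15.4, a log2 fold change of 5.83 ± 0.43 (SE) with an edgeR adjusted p of 1.47e-06. LTBP2 was not that low in EPCAM-positive cells of the other OS controls. Its mean was 1.14 CPM in the PA control, 2.54 CPM in the OA control and 3.15 CPM in untreated organoids. Levels were not tested across experiments, and the fold change holds against the TGFB1 control only.

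PMEPA1 in EPCAM-positive cells was at 139 and 167 CPM in control and 695 and 645 CPM with TGFB1 (log2 fold change 2.32 ± 0.21, SE, edgeR adjusted p = 6.26e-06). SKIL was at 130.3 and 148 CPM and then 535 and 471 CPM (2.05 ± 0.26, SE, adjusted p = 6.22e-05). BAMBI was at 118 and 141 CPM and then 318 and 310.2 CPM (1.46 ± 0.35, SE, adjusted p = 0.00851). For all 3 the treated libraries were well above the controls. TGIF1, at 74.2 and 105 CPM and then 150.1 and 147 CPM, had a log2 fold change of 0.90 ± 0.28 (SE, adjusted p = 0.0301), 0.72 with an adjusted p of 0.0728 on library totals, and an adjusted p of 0.0643 with only the compared libraries. Leaving out control replicate 1 or either TGFB1 library also ended the TGIF1 call, with adjusted p values of 0.228, 0.138 and 0.0915, and leaving out control replicate 1 ended that of BAMBI (adjusted p = 0.0791).

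Within this class SMAD7, SMAD6 and SKI again overlapped between the groups, and control replicate 1 was again the highest library, at 43.7, 22.9 and 48.6 CPM against 15.3, 11.6 and 15.7 CPM in control replicate 2. Without control replicate 1, SMAD7 had a log2 fold change of 1.24 with an adjusted p of 0.00941. The EPCAM-positive cells differed between the groups in other respects too. Cells with a UMI of the cell cycle genes MKI67, TOP2A or CDK1 made up 14.2% and 14.1% of control cells and 0.756% and 0.411% of treated cells. VIM was at 513 and 1142 CPM and then 5601 and 4752 CPM, and the ductal markers did not move together: KRT7, a keratin gene, was at 26.9 and 58.2 CPM and then 793 and 632 CPM, SPP1 at 961 and 1269 CPM and then 638 and 644.5 CPM, and SOX9 at 237 and 148 CPM and then 149.5 and 170.5 CPM. The hepatocyte markers were mixed as well. Their sum went from 2718 and 4075 CPM to 6138 and 5206 CPM, which followed SERPINA1, a secreted protease inhibitor gene, at 1616 and 2827 CPM and then 5738 and 4780 CPM. ALB, the albumin gene that defines hepatocytes, was at 4.11 and 3.56 CPM and then 0.158 and 0.101 CPM, and AFP, the fetal liver protein gene, at 607 and 464.5 CPM and then 93.3 and 106 CPM. The 3 gut markers summed to 232 and 190.1 CPM and then 76.8 and 97.4 CPM, the 4 immune markers to 248 and 213 CPM and then 48.4 and 38.7 CPM, and TP63, a squamous and basal cell factor, was at 0 and 0.284 CPM and then 11.6 and 13.4 CPM. The 5 epithelial markers summed to 3238 and 5686 CPM and then 9005 and 6930 CPM. Among neural markers, STMN2 was at 14.3 and 16.9 CPM and then 79.9 and 56.2 CPM, DCX at 25.4 and 18.9 CPM and then 0.633 and 0.941 CPM, and SOX10 at most 0.131 CPM. The part of these shifts in the results for the 8 genes was not tested. With all cells holding a cell cycle UMI left out, 5 of the 8 genes were still called: LTBP2, PMEPA1, SKIL, BAMBI and TGIF1. That alternative was added after the data were seen, and it leaves the other shifts in place.

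In COL-positive cells TGFB1 called 0 of the 8 genes in edgeR, while 2 of them had an unadjusted p under 0.05 and DESeq2 called 1. The share of all genes at that unadjusted p was not computed. Here 2 of 14176 genes were higher (0.0141%) and 1 was lower (0.00705%). That number of called genes was unstable: instead of 3 it was 1125 without control replicate 2, 0 without control replicate 1 or TGFB1 replicate 1, 1 without TGFB1 replicate 2, 109 with DESeq2, 458 without a low-count filter and 666 with double-positive cells kept in both classes. The median log2 fold change was 0.33 over the 8 genes and 0.0 over all genes, or -0.24 over all genes on library totals. PMEPA1 came nearest: it was at 96.8 and 98.8 CPM in control and 212 and 163 CPM with TGFB1, without overlap, and had a log2 fold change of 1.19 ± 0.26 (SE, adjusted p = 0.124). With DESeq2 its adjusted p was 0.0146, without a low-count filter 0.0079, and without control replicate 2 0.0169. TGIF1, at 55.1 and 53.2 CPM and then 80.4 and 62.3 CPM, had a log2 fold change of 0.65 ± 0.28 (SE, adjusted p = 0.342).

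SKIL was at 185.5 and 170.4 CPM in COL-positive control cells and 219 and 179 CPM with TGFB1, and BAMBI at 191 and 220.2 CPM and then 276 and 215 CPM. Both overlapped between the groups, with log2 fold changes of 0.43 ± 0.24 and 0.50 ± 0.37 (SE). Over the alternatives other than leaving out a library, SKIL ranged from 0.16 to 1.37, with an adjusted p as low as 0.00779. BAMBI ranged from 0.25 to 0.94 and was not called. LTBP2 was already present in these control cells, at 16.1 and 14.1 CPM from 12 and 30 UMIs, and was at 17.2 and 12.3 CPM from 55 and 49 UMIs with TGFB1. Its log2 fold change of 0.22 ± 0.44 (SE, adjusted p = 0.862) shows no difference larger than the spread. The class was small, with 439 and 333 control cells and 513 and 660 treated cells, and control replicate 1 carried the epithelial and hepatocyte markers given above.

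The LTBP2 level of EPCAM-positive cells was 1.38% and 2.01% of that of COL-positive cells in the same control libraries and 74.5% and 125% in the TGFB1 libraries. The mesenchymal markers were mixed in the same ratio. VIM went from 28.2% and 28.6% to 123% and 141%, and COL1A1 from 0.91% and 0.443% to 8.82% and 9.35%. LUM went from 0.629% and 0.316% to 0.848% and 1.26%, COL6A3 from 0.518% and 0.144% to 0.294% and 0.204%, and DCN, PDGFRA and PDGFRB were at most 2.43% in all 4 libraries. So VIM, like LTBP2, reached the level of COL-positive cells, and the other 6 markers did not. The part of this shift in the LTBP2 result was not tested. In the other OS controls mean LTBP2 differed less between the classes. EPCAM-positive and COL-positive cells were at 1.14 and 7.30 CPM in the PA control and 2.54 and 3.19 CPM in the OA control. Untreated organoids were at 3.15 and 5.67 CPM.

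The difference of TGFB1 effects between the classes was tested with each library as a block. The effect was lower in COL-positive than in EPCAM-positive cells for 5 of the 8 genes and higher for 0, beside 4.11% of 14408 genes lower and 2.04% higher. The median difference was -1.07 over the 8 genes and -0.06 over all genes. The differences in log2 fold change were -5.64 ± 0.50 for LTBP2, -1.64 ± 0.18 for SKIL, -1.15 ± 0.18 for PMEPA1 and -0.98 ± 0.18 for BAMBI (SE, edgeR adjusted p of 0.000259, 0.000679, 0.00637 and 0.0123). SMAD7 differed too, by -1.16 ± 0.24 (SE, adjusted p = 0.0217): it went from 56.5 and 24.5 CPM to 20.9 and 21.1 CPM in COL-positive cells, while both EPCAM-positive TGFB1 libraries, at 30.3 and 37.3 CPM, lay between their controls. TGIF1 (-0.26 ± 0.22), SMAD6 (-0.44 ± 0.29) and SKI (-0.13 ± 0.22) did not pass the test.

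This fit holds 4 libraries only, and leaving out 1 leaves a single library in a group, with little left to measure the spread. The differences then ranged from -5.99 to -5.30 for LTBP2 and -1.675 to -1.58 for SKIL. They were -1.395 to -0.88 for SMAD7, -1.26 to -1.05 for PMEPA1 and -1.11 to -0.85 for BAMBI. These last 3 lost their calls without TGFB1 replicate 1 and without TGFB1 replicate 2. Over the other alternatives the adjusted p was at most 0.00494 for LTBP2 but reached 0.0813 for SKIL, which was not called with a replicate block. With double-positive cells kept in both classes, which then share cells, 2 of the 8 differences were called, LTBP2 and SKIL, and both were smaller, at -3.75 and -0.60, while that of PMEPA1 was -0.14. Double-positive cells were 1.93% and 5.24% of control libraries and 15.8% and 8.65% of TGFB1 libraries, and COL1A1, a fibrillar collagen gene like the 2 that set the gate, was higher in EPCAM-positive cells with TGFB1, as given above. Whether the treatment moved cells across the gate, and its part in the class differences, was not tested. In them PMEPA1 was at 129 and 152 CPM in control and 660.5 and 540.1 CPM with TGFB1, LTBP2 at 4.46 and 4.46 CPM and then 20.1 and 17.3 CPM, and SKIL at 103 and 155 CPM and then 520 and 355 CPM. Double-positive cells were thus near the EPCAM-positive cells in PMEPA1 and SKIL; these cells were not tested.

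**Figure D4:**
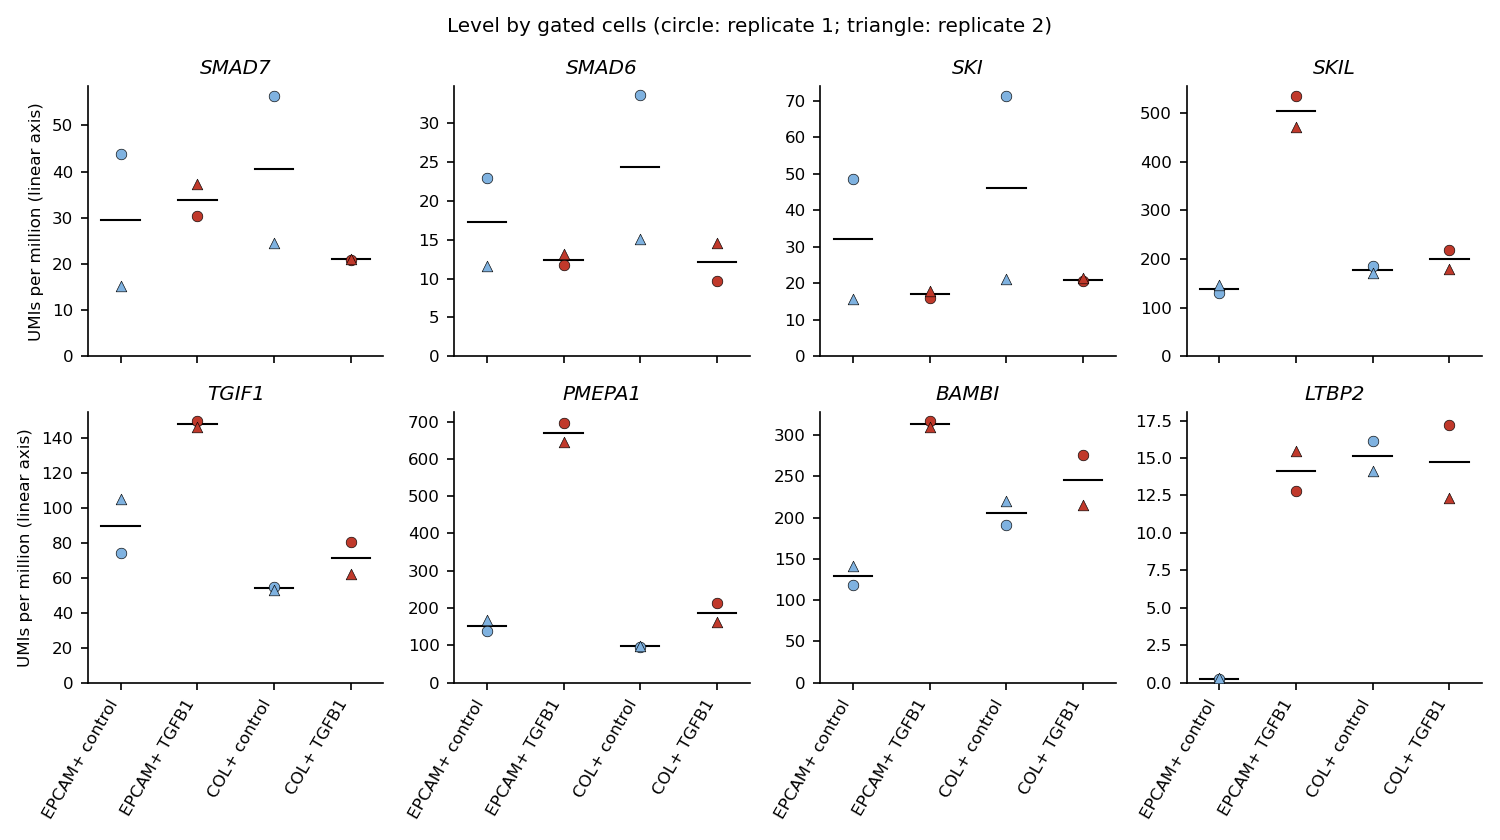
Level of each gene in CPM (vertical axis, linear, from 0) in EPCAM-positive and COL-positive cells of the 2 control and 2 TGFB1 libraries (circle: replicate 1, triangle: replicate 2; bar: mean). LTBP2 was near 0 in EPCAM-positive control cells alone, and PMEPA1 and SKIL separated the groups most widely in EPCAM-positive cells.

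OA was also compared in EPCAM-positive cells, which leaves out the COL-positive cells by gate. SKIL rose and LTBP2 fell there as well, 1 of 8 in each direction beside 19.1% of genes higher and 16.8% lower. On library totals 2274 genes were higher and 4079 lower instead of 3353 and 2950, and the median over all genes was -0.30 instead of -0.06. LTBP2 was at 2.44 and 2.65 CPM in the control (56 and 35 UMIs) and 0.28 and 0.37 CPM with OA (14 and 18 UMIs), a log2 fold change of -2.72 ± 0.38 (SE) with an edgeR adjusted p of 0.00015. The summed mesenchymal markers in these cells went from 916 and 1070.0 CPM to 214 and 182 CPM. Cells with a cell cycle UMI went from 26.6% and 23.4% of the class to 9.3% and 12.3%. The part of these shifts in the fall of LTBP2 and the rise of SKIL was not tested. SKIL, at 105.5 and 126 CPM and then 172 and 171 CPM, had a log2 fold change of 0.81 ± 0.25 (SE, adjusted p = 0.0204), which lost its call on library totals (0.57, adjusted p = 0.109) and when any 1 of the 4 libraries was left out (adjusted p of 0.0642 to 0.103). In COL-positive cells OA was not tested, because replicate 2 held 38 such cells. LTBP2 did not fall in the 60 COL-positive cells of OA replicate 1, at 17.0 CPM beside 2.98 to 3.40 CPM in the controls. In double-positive cells it was at 2.13 to 8.84 CPM with OA and 3.41 to 5.41 CPM in control. These values were not tested.

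PA in EPCAM-positive cells gave 0 called genes of the 8 in edgeR, 0 at an unadjusted p under 0.05 and 0 in DESeq2, beside 0.103% of all genes higher and 0.0% lower. PMEPA1 had a log2 fold change of 0.28 ± 0.20 and SKIL of -0.11 ± 0.25 (SE, adjusted p = 1.0 for both).

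The other genes of the pathway, 65 genes in 8 lists, were tested in the same comparisons. With TGFB1, 25 of the 63 that passed the low-count filter were higher and 9 lower in whole libraries, beside 10.9% and 11.3% of all genes, so the number lower is near the share of all genes. On library totals these were 18 higher and 13 lower, and without control replicate 1, 18 and 5 of 64. In EPCAM-positive cells 25 of 61 were higher and 9 lower, beside 12.3% and 12.7% of all genes. In COL-positive cells edgeR called 0 of 62 (12 at an unadjusted p under 0.05, DESeq2 1), beside 0.0141% of all genes higher and 0.00705% lower. With PA it called 0 of 63 in whole libraries (7 at an unadjusted p under 0.05, DESeq2 1), beside 0.0465% higher and 0.0% lower. The share of all genes at that unadjusted p was not computed, so the 12 and the 7 have no background beside them. With OA 13 of 63 were higher and 30 lower in whole libraries, beside 21.7% and 21.6% of all genes, and 13 of 61 were higher and 19 lower in EPCAM-positive cells, beside 19.1% and 16.8%. On library totals the OA counts were 10 higher and 33 lower in whole libraries, and 8 and 21 in EPCAM-positive cells. Between ULA day 34 and day 21, 20 of 63 were higher and 3 lower, beside 8.43% and 7.19%. The TGFB1 response was above that to PA for 17 of 63 and below it for 3, beside 4.09% and 4.71%, and above that to OA for 28 and below it for 11, beside 15.4% and 16.4%. Of 14 transcriptional targets, 10 were higher with TGFB1 in whole libraries and 11 in EPCAM-positive cells, with 0 lower in both, and their median log2 fold change in EPCAM-positive cells was 2.63. IL11, a profibrotic cytokine, had a log2 fold change of 3.48 in whole libraries (adjusted p = 5.18e-05) and TAGLN, an actin-binding protein of contractile cells, of 3.06 (adjusted p = 0.00573). In EPCAM-positive cells the leading targets were COL1A1 at 4.13 and TGFBI at 4.02, both matrix genes, although COL1A1 is a fibrillar collagen gene like the 2 that set the gate.

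The other lists are given for EPCAM-positive cells, where 12.3% of all genes were higher and 12.7% lower. Of 6 ligand genes that passed the filter 3 were higher and 1 lower, and of 11 receptor genes 2 were higher and 3 lower, so most receptor genes did not pass the test. The RNA of the ligand subunit INHBA rose by 3.90 and that of TGFB1 itself by 1.91 on the log2 scale, and GDF11 fell by 0.96. The type I receptor gene TGFBR1 rose by 1.54 and BMPR2 by 0.70, while TGFBR3, the betaglycan co-receptor, fell by 2.32 and BMPR1B by 1.40. Among the transducers 1 of 6 was called in each direction, near the share of all genes: SMAD3 rose by 0.78 and SMAD9, a BMP SMAD, fell by 2.65. The negative regulators outside the 8 genes had 4 of 8 higher, led by LDLRAD4 at 1.95, a membrane relative of PMEPA1, and STRAP at 0.86. Only 1 of those 8 was lower, TGIF2 at -0.60, which is near the share of all genes.

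In the remaining lists 1 to 2 genes were called in a direction. Of 3 genes that degrade SKI proteins or promote signalling, USP15, a deubiquitinase of the receptor, was higher at 0.77 and ZFYVE9, the SMAD anchor SARA, lower at -0.81, while RNF111, which degrades SKIL and SMAD7, did not pass the test. In the latent complex list 2 of 5 were higher and 0 lower, FBN1 (2.25) and LTBP1 (1.21), a relative of LTBP2 that does bind latent TGF-beta. Of 8 BMP targets and antagonists, FST, an activin antagonist, was higher at 3.10, and the targets ID2 and ID3 were lower at -1.44 and -1.30. The difference of effects between classes was lower in COL-positive cells for 19 of 62 genes, 11 of them targets, beside 4.11% of all genes, and higher for 3, beside 2.04%, GDF11, SMAD9 and ID3. On library totals without scaling factors 0 of the 34 genes called in EPCAM-positive cells changed sign and 27 were still called, with 18 higher and 14 lower in all. Without TGFB1 control replicate 1, 0 changed sign and 26 were still called.

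**Figure D5:**
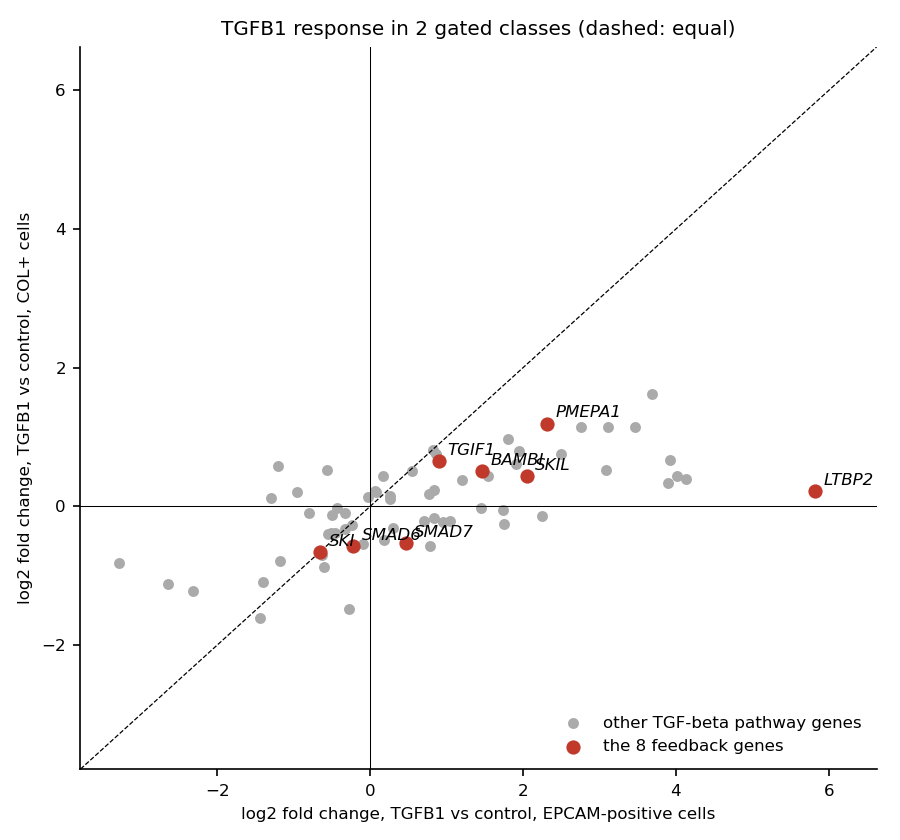
Log2 fold change of TGFB1 against control in EPCAM-positive cells (horizontal axis) and COL-positive cells (vertical axis) for the 8 feedback genes (red, named) and the other pathway genes (grey); the dashed line marks equal change. All 8 feedback genes lie below the line, SKI by the least, at -0.65 and -0.67, and LTBP2 by the most, at 5.83 and 0.22.

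Across the 9 groups the levels spanned very different ranges. The highest group mean was 42.4 times the lowest for PMEPA1, 28.9 times for LTBP2 and 7.48 times for BAMBI, but 2.73 times for SMAD6, 2.93 times for TGIF1 and 3.00 times for SKI. The experiments were run with separate controls, and group levels were not tested across them. The ULA matrices also used a different gene table, with 58721 identifiers in every ULA matrix against 32732 in every OS matrix. Its part in the level differences between ULA and OS groups was not tested. The TGFB1 group had the highest mean of PMEPA1 (613 ± 45.5 CPM, SD, n = 2), SKIL (465 ± 56.3 CPM), BAMBI (305 ± 8.60 CPM), TGIF1 (137 ± 5.68 CPM) and LTBP2 (14.9 ± 0.71 CPM), and for these 5 genes the gap to the next group was larger than the sum of both SDs. The share of all genes with such a gap was not computed, so the 5 have no background beside them. PMEPA1 was lowest in ULA organoids, at 14.5 ± 2.53 CPM on day 21 (SD, n = 3) and 51.2 ± 6.34 CPM on day 34 (SD, n = 2), and all 7 OS groups lay above them. The 6 OS groups other than TGFB1, at 122 to 159 CPM, did not separate from each other, neighbour by neighbour, by the SDs.

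BAMBI was second highest in ULA day 21 (186 ± 25.0 CPM, SD, n = 3) and lowest with OA (40.8 ± 4.71 CPM, SD, n = 2). SMAD7 was low in both groups of the PA experiment, at 11.9 ± 0.68 CPM in control and 10.9 ± 4.14 CPM with PA (SD, n = 2 each), and the next group up, ULA day 21 at 21.3 ± 4.86 CPM (SD, n = 3), was above by more than the SDs. The other SMAD7 groups, at 22.6 to 39.1 CPM, did not separate from their neighbours. No neighbouring groups of SMAD6 or SKI were separated in this way. The 2 untreated OS libraries differed from each other, with SKIL at 260.2 and 152 CPM and BAMBI at 130 and 56.4 CPM.

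Genes with the most similar pattern were sought over the 14 OS libraries, by Pearson's r of log2(CPM + 1), as a description in which libraries of 1 experiment share processing and depth. BAMBI was closest to TUSC1 (r = 0.988), TPST1 (0.984) and FADD (0.979), and these stayed at 0.972, 0.962 and 0.96 over the 12 libraries without TGFB1 treatment. SKIL was closest to FAM120AOS (0.967), PLAU (0.958), the urokinase gene, and DHX32 (0.952). TGIF1 was closest to FLYWCH2 (0.974), CCDC71L (0.967) and RGS19 (0.965), and LTBP2 to AL121827.2 (0.979), NEURL1B (0.962) and MEDAG (0.962). For PMEPA1 the nearest genes were PGR (0.988), NGB (0.988) and CGB8 (0.985), each at under 1 CPM in the median library, and without the 2 TGFB1 libraries these fell to 0.667, 0.604 and 0.415. CGB8 has near-identical copies, so its counts are uncertain.

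SMAD7 was closest to CSRNP1 (r = 0.948), HS2ST1 (0.933) and SLC12A8 (0.913), SMAD6 to PCDHA7 (0.982), VAC14 (0.958) and CFAP44 (0.956), and SKI to MAML1 (0.951), a Notch coactivator, AC080013.1 (0.947) and AC020765.2 (0.937). Without TGFB1 control replicate 1, the 3 values of SKI were 0.887, 0.875 and 0.811 over 13 libraries. Between members, TGIF1 and BAMBI followed each other most closely (r = 0.94), then SMAD6 and SKI (0.89), while r was near 0 for SKI with SKIL and with PMEPA1 (0.0029 and 0.011). Without TGFB1 control replicate 1, the highest library for both SMAD6 and SKI, their r was 0.711 and no longer second, and SKI had an r of 0.159 with SKIL and 0.21 with PMEPA1. TGIF1 and BAMBI stayed at 0.946 without that library and at 0.878 without the 2 TGFB1 libraries. These values without libraries were added after seeing the data.

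The 8 genes are all protein-coding in GENCODE release 44 on GRCh38. The inhibitory SMAD genes lie at chr18:48919853-48950965 (SMAD7) and chr15:66702236-66782849 (SMAD6), and the co-repressors at chr1:2227388-2310213 (SKI), chr3:170357342-170396835 (SKIL) and chr18:3411608-3459978 (TGIF1). PMEPA1 lies at chr20:57648392-57711536, BAMBI at chr10:28677510-28682932 and LTBP2 at chr14:74498183-74612378.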

How the data were processed

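The 10x Genomics 3′ version 3 libraries were deposited by the authors as raw UMI count matrices with no normalization, and the totals count molecules, not reads. Per the file headers, the untreated, OA and OA control matrices come from software version 6.0.2 and the others from 3.0.2. Per the submitters' processing notes, bcl2fastq, Cell Ranger 3.0.2 and Scanpy were used with GRCh38. Barcodes with 500 or more genes and no more than 20% mitochondrial UMIs entered; doublets stayed in the main results, since Scrublet's own threshold marked 26 cells in OA control replicate 2, 1731 of 12427 in ULA day 34 replicate 2 and at most 2 in every other library. UMIs were summed per library, or per library and gated class with at least 50 cells, so libraries are the replicates. CPM used the 32703 identifiers common to all 19 libraries. Tests were two-sided quasi-likelihood tests in edgeR 4.0.16 (R 4.3.3) with filterByExpr, TMM factors and Benjamini-Hochberg adjustment over all genes; the 14 OS libraries shared 1 fit, the 5 ULA libraries another, and EPCAM, COL1A2 and COL3A1 were left out of class fits. The class difference used 4 libraries with a block per library. SE is the log2 fold change over the root of F. Only the whole-library OS fit was run on simulated data, for TGFB1 against control. The ULA, class and class difference fits were not.

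DESeq2 1.42.0, RLE factors, no low-count filter, only the compared libraries, at least 1000 genes and at most 10% mitochondrial counts, Scrublet doublets removed (0.8% per 1000 barcodes), other gates, leaving out each library and a replicate block were tried. Library totals, cells without cell cycle UMIs and a crossed block were added after seeing the data. Replicate numbers were not used as pairs: the labels give them no shared source, and deviations of same-numbered libraries correlated at -0.292 (TGFB1), 0.0995 (PA), 0.0323 (OA) and -0.165 and -0.269 (ULA) in whole libraries, and at -0.279 to 0.176 in the gated classes. All members are named; of other pathway genes, at most the 2 highest and 2 lowest called per list. The members and lists were chosen with earlier results of these data known. Start sequences are from the RefSeq promoter table (GRCh38.p14), which lists 7 of the 8 genes, all but SKI.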

Additional observations from a re-analysis of the deposited data

Results flagged for a closer look

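The differences listed here were singled out because a test of the difference itself passed, between treatments or between gated classes; no explanation was tested.

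Between TGFB1 and PA in whole libraries, the log2 fold changes differed by 1.95 for SKIL, 1.91 for PMEPA1 and 3.82 for LTBP2, TGFB1 minus PA (edgeR adjusted p of 0.00255, 0.000916 and 0.00146). The LTBP2 difference ranged from 3.30 to 4.91 without PA replicate 1 and without PA replicate 2, with adjusted p up to 0.0314 when PA control replicate 2 was left out. Between TGFB1 and OA they differed by 0.98 for SKIL, 2.02 for PMEPA1, 2.13 for BAMBI and 5.81 for LTBP2 (adjusted p of 0.0386, 0.00014, 0.00591 and 1.52e-05). The SKIL difference from OA lost its call with most of the libraries involved left out 1 at a time, as given above.

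Between COL-positive and EPCAM-positive cells, the TGFB1 effect differed by -1.16 for SMAD7, -1.64 for SKIL, -1.15 for PMEPA1, -0.98 for BAMBI and -5.64 for LTBP2 (adjusted p of 0.0217, 0.000679, 0.00637, 0.0123 and 0.000259). The calls of SMAD7, PMEPA1 and BAMBI were lost when either TGFB1 library was left out, and that of SKIL with a replicate block, as given above. For SMAD7 the single-class changes, 0.46 ± 0.33 and -0.53 ± 0.32 (SE), did not pass the test by themselves (adjusted p of 0.326 and 0.47).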

How the results depend on the processing

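Over all the alternatives run for single genes, values of called results were on the same side of the threshold 374 times and lost their call 55 times, with no change of sign. Values of uncalled results stayed uncalled with the same sign 737 times, were called 27 times and changed sign 55 times. The cause of each change was not tested. Depth limits LTBP2, with 2 and 13 UMIs in EPCAM-positive control cells. Leaving out 1 of 2 libraries assumes that the remaining one varies like the other groups. The class difference was fitted on the TGFB1 experiment alone, so it has no other groups to rely on.

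Of the 8 genes, the number called moved as follows. Without each library in turn it ranged from 3 to 6 for TGFB1 in whole libraries, 4 to 6 for TGFB1 in EPCAM-positive cells, 3 to 4 for TGFB1 minus PA, 3 to 5 for TGFB1 minus OA, 1 to 2 for OA in whole libraries, 3 to 6 for ULA, 1 to 1 for OA in EPCAM-positive cells, 0 to 1 for TGFB1 in COL-positive cells and 2 to 5 for the class difference. With only the compared libraries 5 were called for OA in EPCAM-positive cells, where the alternatives other than leaving out a library called 5411 to 8585 of all genes. For TGFB1 in COL-positive cells DESeq2 called 1, no low-count filter 1, and double-positive cells kept in both classes 2. For the class difference 2 were called with no library block and 2 with double-positive cells kept in both classes. With a replicate block 0 were called for ULA instead of 4 and 1 for the class difference instead of 5; it moved the count from 5 to 4 for TGFB1 in whole libraries and from 4 to 3 for TGFB1 minus OA, and left the other counts as they were. A crossed replicate block for TGFB1 in whole libraries, added after seeing the data, called 5.

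The number of all genes called, without each library in turn, ranged from 1704 to 5554 for TGFB1, 5171 to 6570 for OA, 0 to 20 for PA, 755 to 2735 for TGFB1 minus PA, 4242 to 6841 for TGFB1 minus OA and 697 to 7166 for ULA in whole libraries, 1888 to 5459 for TGFB1 and 3259 to 4467 for OA in EPCAM-positive cells, 0 to 1125 for TGFB1 in COL-positive cells and 294 to 2074 for the class difference. With a replicate block 0 genes were called for ULA.

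Uncalled log2 values that changed sign were these. With stricter cells, in whole libraries, SMAD7 with PA was 0.074 and SMAD6 for TGFB1 minus PA 0.00089; in EPCAM-positive cells with PA, SMAD7 was 0.11 and SKI 0.076; in COL-positive cells with TGFB1, LTBP2 was -0.037. With predicted doublets removed, SMAD7 with PA was 0.019 in whole libraries and 0.047 in EPCAM-positive cells. At a gate of 2 UMIs SKI with PA was 0.021. With double-positive cells kept in both classes LTBP2 with PA was 0.0015, SKI with OA -0.031, and SMAD7 with TGFB1 in COL-positive cells 0.25. On library totals LTBP2 with PA was -0.046, PMEPA1 with OA -0.14, SKI with OA in EPCAM-positive cells -0.18 and LTBP2 with TGFB1 in COL-positive cells -0.019. With the replicate block TGIF1 in ULA was -0.012.

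Leaving out 1 library gave these lowest and highest values. TGFB1 in whole libraries: SMAD7 -0.082 to 1.17, SMAD6 -0.64 to 0.21, SKI -1.20 to 0.25. PA in whole libraries: SMAD7 -0.50 to 0.30, SKI -0.42 to 0.13, SKIL -0.18 to 0.12, TGIF1 -0.17 to 0.78, BAMBI -0.43 to 0.65, LTBP2 -1.04 to 0.56. OA in whole libraries: SMAD6 -0.16 to 0.11. TGFB1 minus PA: SMAD7 -0.054 to 1.20, SMAD6 -0.49 to 0.36, SKI -1.09 to 0.36. TGFB1 minus OA: SMAD6 -0.61 to 0.29, SKI -1.06 to 0.43. ULA: SMAD6 -0.24 to 0.62, SKIL -0.016 to 0.61, TGIF1 -0.080 to 0.13. TGFB1 in EPCAM-positive cells: SMAD7 -0.056 to 1.24, SMAD6 -0.56 to 0.20, SKI -1.20 to 0.21. PA in EPCAM-positive cells: SMAD7 -0.43 to 0.28, SKI -0.27 to 0.14, SKIL -0.24 to 0.022, TGIF1 -0.26 to 0.68, BAMBI -0.33 to 0.55, LTBP2 -0.96 to 0.62. OA in EPCAM-positive cells: SKI -0.0068 to 0.15. TGFB1 in COL-positive cells: SKI -1.30 to 0.079, LTBP2 -0.0049 to 0.40.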
